A study of Mus musculus with 8 samples.

Results

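The comparison described here set basal cells of mouse back skin that had been expanded by force for 4 days against basal cells of untreated control skin. Gene expression was measured on Affymetrix arrays in 3 expanded and 3 control mice, and 17097 genes were tested, each represented by its brightest probe set, the group of short probes that reads 1 transcript. These 6 arrays were taken from a series of 8, and the other 2 came from mice given TPA (12-O-tetradecanoylphorbol-13-acetate), an activator of protein kinase C. All mice were of the outbred CD1 strain, with 1 array per mouse. The labels give no age and no allele, and give a treatment for the TPA arrays but no dose or time. From each mouse 300 living cells were sorted for the integrin ITGA6, which basal cells carry at their base, and for the absence of CD34, which marks the follicle bulge. By the protocol this gate takes cells of the interfollicular epidermis and of the infundibulum, the upper part of the hair follicle. Values are log2 signals, so a difference of 1 is a doubling.

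Mouse epidermis renews itself from a single basal layer. Basal cells are anchored to the basement membrane by integrins and hemidesmosomes, express the keratins Krt5 and Krt14, and divide or leave the layer. Cells that leave switch to the keratins Krt1, Krt10 and Krt2, change their desmosomes and build a cornified envelope. When skin is stretched, basal cells are known to divide more, and signalling through the EGF receptor, the MAP kinases, YAP and the actin-regulated factor SRF has been tied to that response.

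The identity of the cells was checked first. The basal keratin Krt5 read 13.32, 13.28 and 13.23 on the control arrays and 13.31, 13.31 and 13.26 on the expanded arrays, and Trp63, the master regulator of stratified epithelia, read between 12.26 and 12.31 on all 6. Cd34 lay between 4.62 and 4.95, under the background limit. That limit, 6.4 to 6.56 depending on the array, was set by the level under which 95 percent of 77 genes for smell receptors fell, a family (olfactory, vomeronasal and amine-sensing) taken to be silent in skin, and 33.2% of genes lay under it on all 8 arrays. Medians of the arrays differed little, from 7.08 to 7.14. Arrays of the same group correlated at 0.993 to 0.995 (control) and 0.994 (expanded) over genes, and control with expanded arrays at 0.98 to 0.982.

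The labels of the control and TPA arrays ran against known markers. The stress keratins Krt6a, Krt6b and Krt16 and the polyamine enzyme Odc1 are classic genes of TPA-treated mouse epidermis and are low in resting interfollicular skin. Odc1 read 11.33, 11.36 and 11.33 on the arrays labelled control, 9.82, 9.70 and 9.99 on the expanded arrays, and 8.93 and 9.05 on those labelled TPA. Krt16 read 13.03 to 13.05, 12.86 to 12.93, and 12.20 and 12.10 in the same order, and Krt6b fell to 6.47 and 11.27 on the TPA arrays from 12.77 to 12.82 on the control arrays. All 4 genes were thus highest under the control label and lowest under the TPA label. Whether labels were exchanged was not tested. Array names below follow the labels, each direction holds for the arrays so labelled, and the main results are also given against the arrays labelled TPA.

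**Figure D1:**
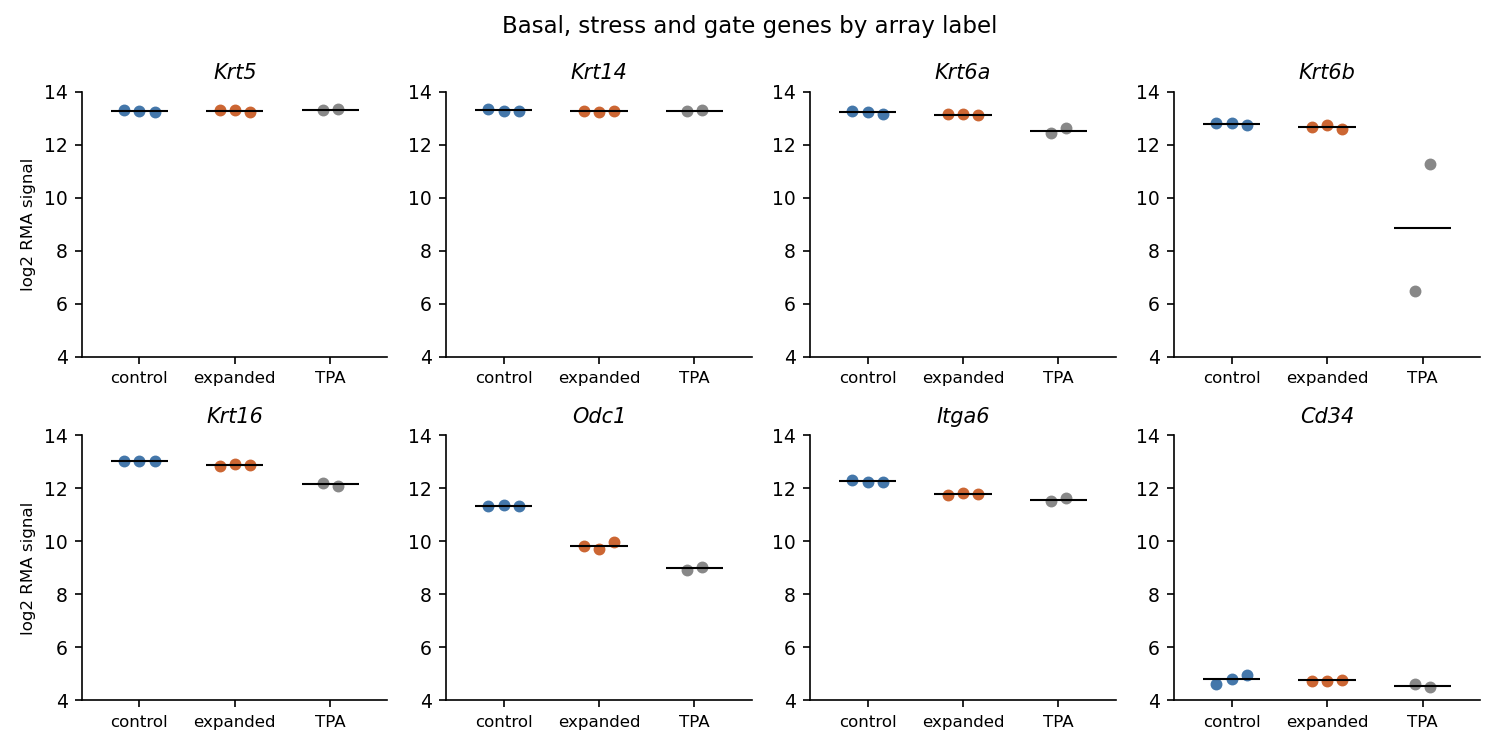
Log2 RMA signal (y axis) of 8 genes on each array, by label (x axis: control, 3 arrays; expanded, 3 arrays; TPA, 2 arrays); each point is 1 mouse and the line is the group mean. Krt5 and Krt14 are level across the labels, Cd34 lies under 5, and Krt6a, Krt6b, Krt16 and Odc1 are highest under the control label and lowest under the TPA label.

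Between expanded and control arrays, 1960 of 17097 genes (11.5%) passed an adjusted p of 0.05, of which 972 (5.69%) were higher and 988 (5.78%) lower in expanded skin. The calls were about even in number, but the falls were larger. A 2-fold or greater difference was reached by 115 genes that were higher (0.673%) and 208 that were lower (1.22%), and a 4-fold one by 11 and 30. The median size among called genes was 0.56, or 1.47-fold, and 1055 of them lay under 1.5-fold. The arrays of the 2 groups did not overlap for 5121 genes (30%), among them all 1960 that passed. Most calls came from well measured genes, with 1061 among the 4274 genes with the highest signal and 61 among the 4275 with the lowest. The control arrays are written Ctrl1, Ctrl2 and Ctrl3 and the expanded arrays Exp1, Exp2 and Exp3 where 1 of them is left out. Leaving out each of the 6 in turn left 1261 to 1517 calls, fewest without Ctrl2, and 1035 genes (52.8%) were called in all 6 of those fits. The genes named below come from these 1035 unless stated.

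**Figure D2:**
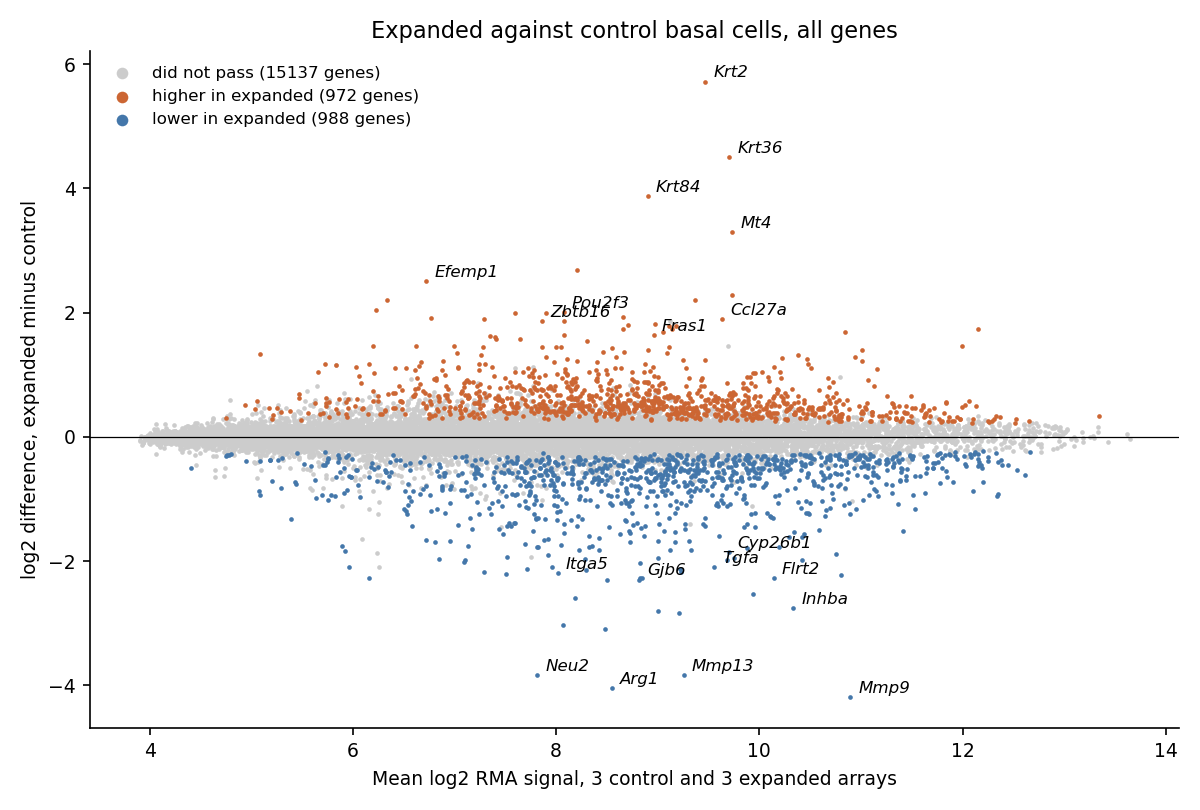
Log2 difference, expanded minus control (y axis), against the mean log2 signal of the 6 arrays (x axis) for 17097 genes; orange genes were higher and blue genes lower at an adjusted p under 0.05, grey genes did not pass. Krt2 at 5.72, Krt36 at 4.51 and Krt84 at 3.88 stand at the top. Mmp9 at -4.19, Arg1 at -4.04, Neu2 at -3.84 and Mmp13 at -3.83 stand at the bottom.

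The genes were grouped into 49 lists by their function in skin, with 1282 genes in all. Of 1145 that were measured, 320 passed (27.9%). Lists of skin biology hold more brightly measured genes than the array as a whole, so this share is not set against 11.5% as a finding. By share of members, the lists of 20 or more genes with the most falls were focal adhesion (12 of 20 members lower), SRF and actin cytoskeleton (16 of 28), and glycolysis and hypoxia (15 of 29). Their medians were -0.54, -0.37 and -0.31, beside a median of 0.01 over all genes. The SRF and actin median was -0.60 among genes with above-median signal. The lists were drawn up with earlier results of these data known, so these ranks and medians describe the lists and test nothing. The lists with rises and no falls were the circadian clock (6 of 22), Myc and ribosome biogenesis (6 of 31), ribosomal proteins (5 of 23), the Hox genes (3 of 26), the respiratory chain (2 of 33) and T cell markers (1 of 10). Over all genes 5.69% were higher, and the respiratory chain, at 6.06%, was near that share. The T cell rise was Thy1 alone.

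**Figure D3:**
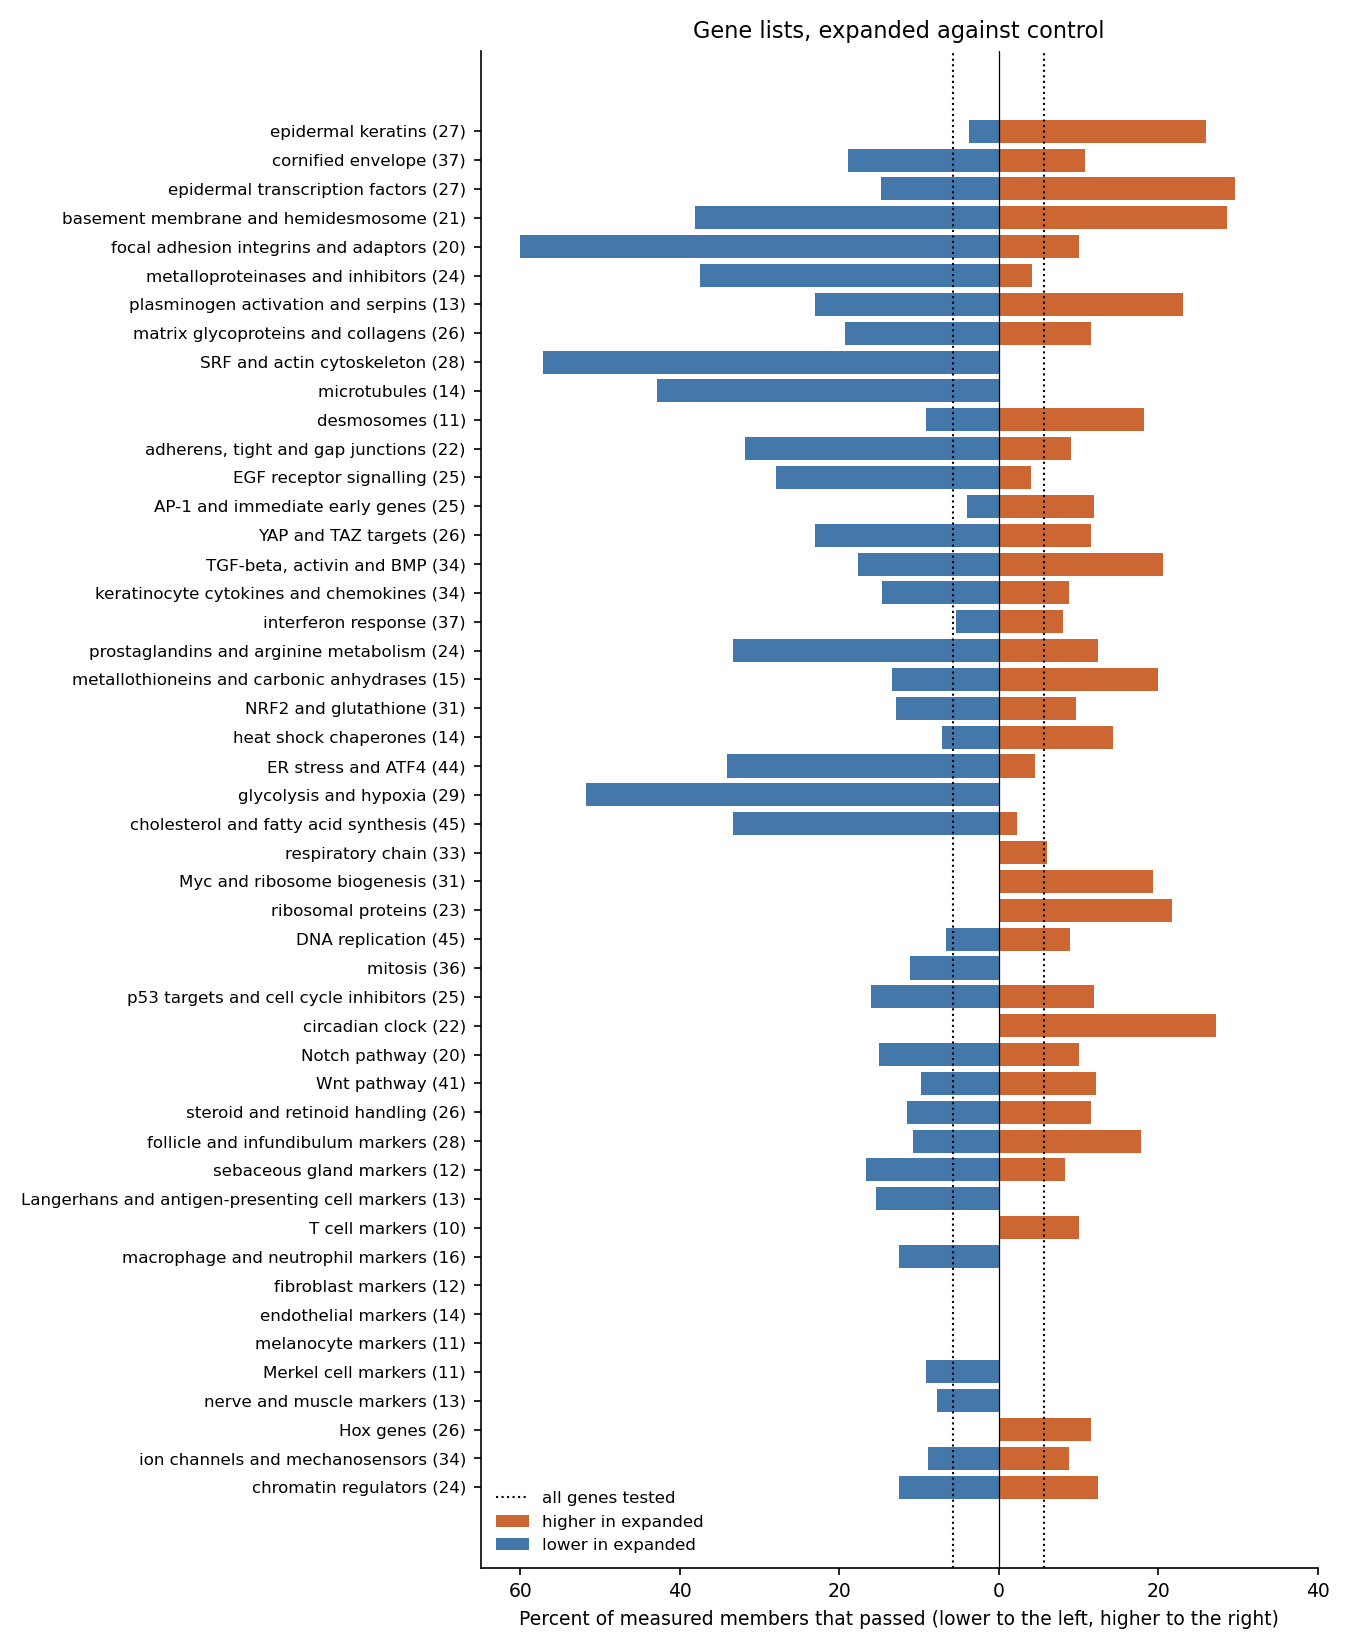
Percent of each list's measured members (number in brackets) that were lower (blue, to the left) or higher (orange, to the right) in expanded skin at an adjusted p under 0.05; lists with fewer than 10 measured members are left out. Dotted lines mark the shares over all genes tested, 5.78% lower and 5.69% higher. Focal adhesion reaches 12 of 20 lower, and the SRF and glycolysis lists have no member higher.

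The 3 largest rises of all genes were keratins, 1 of the suprabasal layers and 2 of hair and nail. Krt2, a keratin of the upper spinous layer, read 5.99, 6.50 and 7.35 on the control arrays and 12.25, 12.35 and 12.38 on the expanded arrays. It was thus near background in control cells, with 2 of 3 arrays above the limit, and among the brighter genes in expanded cells. The difference was 5.72 ± 0.28 (SE), or 52.5-fold, at an adjusted p of 2.87e-05. Krt36 and Krt84, hard keratins of hair, nail and tongue, read 7.83, 7.58 and 6.94 against 12.14, 11.86 and 11.87, and 7.06, 6.63 and 7.18 against 11.15, 10.85 and 10.52. They rose by 4.51 and 3.88. The pair that defines early differentiation rose as well, Krt1 by 1.73 ± 0.33 (adjusted p = 0.0109) and Krt10 by 1.47 ± 0.23 (adjusted p = 0.00451). Krt1 varied on the control arrays, from 10.49 to 12.09, but stood at 12.94 to 13.13 on the expanded ones. Of 7 suprabasal keratins measured, 4 were higher and none lower, the other member named here being Krt80 at 0.80.

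Basal keratins did not move together. Krt5 (0.01) and Krt14 (-0.02) did not pass, whereas Krt15, the keratin of quiescent basal and bulge cells, read 8.52, 8.72 and 8.68 against 9.98, 9.86 and 9.75 and rose 2.34-fold (adjusted p = 0.000106). None of the 3 stress keratins passed. In all, 7 of 27 keratins were higher and 1 lower, Krt18, a keratin of simple epithelia and of Merkel cells, at -0.41. Its adjusted p was 0.38 with signals raised to the background limit.

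Of 37 genes of the cornified envelope measured, 4 were higher and 7 lower, with a median of -0.08, and both the 26 precursors (2 higher, 5 lower) and the 11 enzymes (2 higher, 2 lower) went both ways. Casp14, a protease of late cornification, read 7.43, 7.48 and 7.70 against 8.91, 9.84 and 8.49 and rose 2.92-fold, and Krtdap, a small protein secreted by differentiating cells, rose by 0.56. The envelope precursors Sprr1a and Sprr1b, which stressed keratinocytes also make, were among the falls. Sprr1a dropped by 1.57 ± 0.28 (adjusted p = 0.0082) and Sprr1b by 1.0 ± 0.14 (adjusted p = 0.00212). Cnfn read 8.62, 8.77 and 8.85 against 7.18, 7.14 and 6.99, with little spread on either side. Tgm1, the transglutaminase that crosslinks the envelope, was 2.09-fold lower, and the kallikrein protease Klk10 was 2.43-fold lower. Ivl (-0.33) and Lor (0.36) did not pass. Counts in this list depended on single arrays, with 2 to 5 members higher and 5 to 8 lower when 1 array was left out, fewest higher without Ctrl3 or Exp2.

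Desmosomes, the spot junctions between keratinocytes, differed in 3 of 6 cadherins. Dsg1a, a cadherin of the suprabasal layers, read 8.56, 8.27 and 8.03 on the control arrays and 10.03, 10.13 and 10.07 on the expanded arrays, a rise of 1.79 ± 0.12 (adjusted p = 8.21e-05). Dsc1, its suprabasal partner, rose 2.72-fold, while Dsc2, found lower in the epithelium, fell from 10.57, 10.90 and 10.81 to 9.21, 9.45 and 9.75. The arrays of the groups did not overlap for any of these 3. None of the 5 plaque proteins passed, and the list as a whole had 2 of 11 higher and 1 lower.

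Among transcription factors of the epidermis, 8 of 27 were higher and 4 lower, the latter 2 without Ctrl2, Ctrl3, Exp1 or Exp3. Gata3, which drives barrier formation, rose by 0.45, and Hopx, a homeodomain protein without DNA binding, by 0.77. The rises also took in Maf (0.92), a differentiation factor, Sox7 (0.93) and Satb1 (0.88), a chromatin organiser. Klf5, a factor of proliferating epithelia, fell by 0.58 and Runx1 by 0.41. Averaged over the gene's probe sets, Sox7 read 0.61, Satb1 0.52 and Runx1 -0.84. Pou2f3, a POU factor of differentiating keratinocytes, was among the largest rises of all genes, from 7.05, 6.97 and 7.19 to 8.93, 9.13 and 9.19, or 4.04-fold (adjusted p = 2.43e-05).

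Most genes of the focal adhesion list were lower in signal, and adhesion itself was not measured. Of 9 integrins in the focal adhesion list 5 were lower and 1 higher, and of 11 adaptors 7 were lower and 1 higher, counts that stayed the same with any 1 array left out. Itga5, the fibronectin receptor chain, read 9.10, 9.06 and 9.17 on the control arrays and 6.46, 7.47 and 6.81 on the expanded ones, of which 2 were above the background limit. It fell by 2.19 ± 0.22 (adjusted p = 0.00051). Itga2, a collagen receptor chain, fell by 1.57, and Itgb6, which activates latent TGF-beta, read 9.51, 9.78 and 9.42 against 8.17, 8.0 and 8.12. The common chain Itgb1 read 12.54, 12.61 and 12.48 against 11.71, 11.61 and 11.67 and fell by 0.88 ± 0.07 (adjusted p = 0.000207) with no overlap. Adaptors that tie integrins to actin fell less, among them talin (Tln1, -0.54), vinculin (Vcl, -0.69), paxillin (Pxn, -0.67) and zyxin (Zyx, -0.57). The exceptions were the vitronectin receptor chain Itgb5, which rose by 0.69 ± 0.07, and tensin (Tns1), which rose from 8.72, 8.20 and 8.33 to 9.89, 9.69 and 9.73.

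The basement membrane list had 6 of 21 members higher and 8 lower, with 3 of 4 laminins lower and none higher, and 4 of 6 hemidesmosome parts lower (2 without Exp1 or Exp3) and 1 higher. The laminin chains Lama3 and Lamb3 read 12.80, 12.89 and 12.73 against 11.87, 11.85 and 11.93, and 12.77, 12.86 and 12.81 against 11.85, 11.83 and 11.88. They fell by 0.92 and 0.96, though a dimmer probe set of Lama3 differed by only 0.01 and the mean of both was -0.46. The hemidesmosome integrin chains Itga6, on which the cells were sorted, and Itgb4 fell by 0.47 and 0.38, and the heparan sulfate proteoglycan perlecan (Hspg2) by 0.69. Of 11 other basement membrane genes 5 were higher (2 without Ctrl2 or Ctrl3) and 1 lower. Col4a6, a minor chain of type IV collagen, read 6.86, 6.39 and 6.61 against 8.14, 8.34 and 8.09 and rose by 1.57 ± 0.13 (adjusted p = 0.000163). Fras1, which links epidermis to dermis under the basement membrane, rose by 1.64 ± 0.13 (adjusted p = 0.000136), and the hemidesmosome plakin dystonin (Dst) by 0.40. With 1 array left out, 3 to 6 members were higher, fewest without Ctrl2 or Ctrl3, and 5 to 8 lower, fewest without Exp1 or Exp3.

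**Figure D4:**
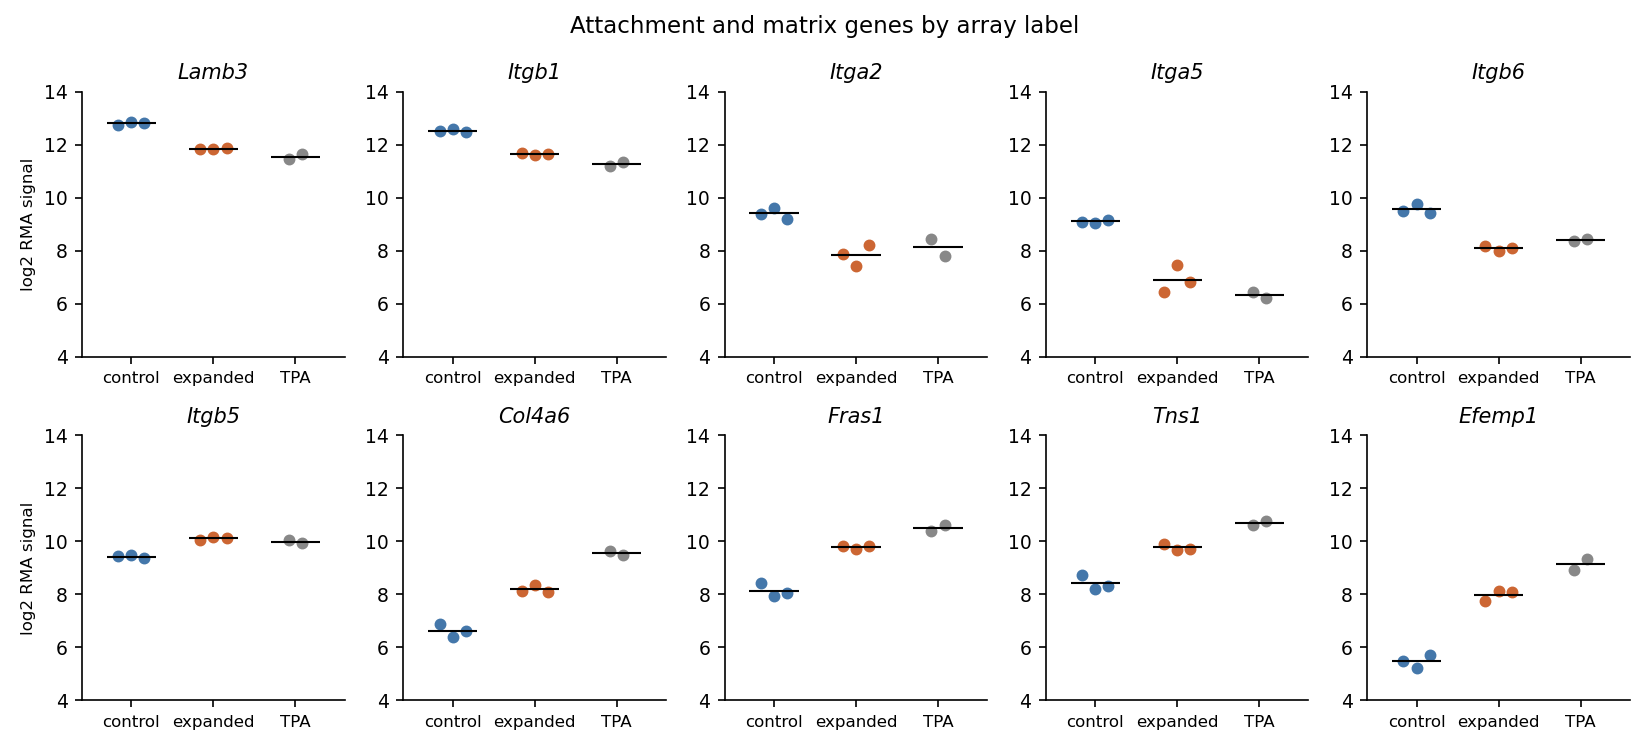
Log2 RMA signal (y axis) of 10 attachment and matrix genes on each array, by label (x axis); points are mice (3 control, 3 expanded, 2 TPA) and lines are group means. Lamb3, Itgb1, Itga2, Itga5 and Itgb6 are lower on all expanded than on all control arrays, and Itgb5, Col4a6, Fras1, Tns1 and Efemp1 are higher.

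Of 20 secreted metalloproteinases 8 were lower and 1 higher. The gelatinase Mmp9, the largest fall of all genes, read 13.02, 13.09 and 12.85 on the control arrays and 9.99, 8.67 and 7.73 on the expanded arrays and fell by 4.19 ± 0.46, or 18.3-fold (adjusted p = 0.000823). The collagenase Mmp13 read 11.39, 11.23 and 10.89 against 8.69, 6.73 and 6.62, and the stromelysin Mmp10 11.19, 11.32 and 11.08 against 9.88, 8.70 and 7.41. Expanded replicate 1 was the highest of its group for these 3 genes, and the expanded arrays spread far more than the control arrays. Mmp3 fell by 1.95. Mmp1b was not above background on any expanded array and was at least 1.76-fold lower. Mmp2, a gelatinase with another control, ran the other way, from 7.52, 7.69 and 7.23 to 8.81, 8.82 and 8.57. Timp1, an inhibitor of these enzymes, fell from 10.34, 10.24 and 9.50 to 6.69, 6.68 and 7.46, or 8.5-fold. In the list, 1 of 24 members was higher and 9 lower.

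In the list of plasminogen activation and serpins, 2 of 3 genes of the activation group were lower. These were urokinase (Plau), by 1.23 ± 0.12, and its receptor (Plaur), by 1.45 ± 0.11. The inhibitor group takes in serpins at large and is not limited to inhibitors of plasminogen activation. Of its 10 genes 3 were higher and 1 lower, with a median of -0.08 and differences from -1.79 to 2.20. The serpin Serpinb3a read 7.56, 7.95 and 7.59 against 9.48, 9.97 and 9.42, and Serpinb12, above background on 2 expanded arrays and on no control array, was at least 1.15-fold higher, but with signals raised to the limit it did not pass (adjusted p = 0.413). The list had 3 of 13 members higher and 3 lower.

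Matrix proteins went both ways, with 3 of 26 higher and 5 lower. The fibulin-like Efemp1 was not above background on any control array and read 7.73, 8.11 and 8.07 on the expanded arrays, at least 2.74-fold higher. Periostin (Postn) read 9.90, 9.74 and 9.53 against 11.47, 10.84 and 10.80. The collagen lysyl hydroxylase Plod2 fell by 1.13 (-0.71 averaged over its probe sets). Fibronectin (Fn1) read 11.42, 8.16 and 9.17 against 5.92, 7.61 and 6.12, a called difference of -3.03 (adjusted p = 0.0365) whose adjusted p was 0.0535 to 0.116 without Ctrl1, Ctrl3, Exp1 or Exp3 and 0.115 with a trended robust variance. With 1 array left out, 2 to 4 members of the list were lower, fewest without Ctrl3 or Exp1.

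Of 28 genes of SRF and the actin cytoskeleton 16 were lower and none higher, with 13 to 14 lower when 1 array was left out. SRF, with its cofactor MRTF (Mrtfa), switches on actin-binding genes when actin assembles. Of 13 actin-binding members 10 were lower. Alpha-actinin (Actn1) read 12.12, 12.11 and 12.05 against 11.15, 11.26 and 11.14, the tightest of these sets, and fell by 0.91 ± 0.07 (adjusted p = 0.000114). Pdlim7, which docks on actin fibres, read 10.63, 10.54 and 10.54 against 8.94, 9.18 and 9.24, or 2.73-fold lower. Caldesmon (Cald1, -1.45), tropomyosin (Tpm1, -1.41) and calponins (Cnn2, -0.63; Cnn3, -1.16, or -0.56 with signals raised to the limit) fell too. Of 7 myosin members 4 were lower (2 without Ctrl2, Ctrl3 or Exp1), among them the non-muscle heavy chain Myh9 at -0.69. Mrtfa fell by 0.60, and Srf (-0.21, adjusted p = 0.107) did not pass. Smooth muscle actin (Acta2) was lower by 1.44 in its brightest probe set, but its other probe set read 0.12 higher and the mean of both was -0.66. Tubulins followed, with 6 of 10 lower, or 4 to 5 with 1 array left out. Tubb3, better known from neurons, read 10.33, 10.21 and 10.30 against 8.48, 7.75 and 8.22, or 4.39-fold lower. Tubb2a fell by 1.18 and Tuba1a by 0.90.

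SRF binds a site named the CArG box. The 250 bases before the RefSeq start held it, on either strand, in 8 of 26 members with a promoter entry (30.8%). Among array genes the share was 1.51%. Because the list was picked as genes of SRF and actin, these shares describe the list and not the expansion comparison. The windows are shown for the 2 members with a box that were called, both lower, with the box in capitals; the other 6 members with a box did not pass. Sequences are of mouse GRCm38.p6, on the strand of the gene. Cnn2 lies on the plus strand at chr10:79988529-79988568 and the Fhl2 windows on the minus strand at chr1:43163968-43164007 and chr1:43196833-43196872. The Fhl2 windows are listed by coordinate, so the one headed first start lies downstream of the other on the strand of the gene.
Cnn2: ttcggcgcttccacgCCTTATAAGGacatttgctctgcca
Fhl2, first start: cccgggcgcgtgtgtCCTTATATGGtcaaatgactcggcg
Fhl2, other start: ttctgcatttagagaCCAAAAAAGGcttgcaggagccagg
The LIM protein Fhl2 read 9.51, 9.46 and 9.38 against 8.0, 8.38 and 8.62, and fell by 1.11 ± 0.14 (adjusted p = 0.00158). A box is a match of letters and not a shown binding site.

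At other junctions 2 of 22 members were higher and 7 lower, with 3 to 5 lower when 1 array was left out, fewest without Ctrl2 or Exp3. Gjb6, a gap junction connexin of hyperplastic epidermis and hair, read 9.84, 10.24 and 9.82 against 7.38, 7.58 and 8.05, and fell 4.91-fold (adjusted p = 0.000299). The claudin Cldn4 read 7.75, 8.65 and 7.86 against 6.16, 6.46 and 5.71, of which 1 was above background. Ocln, occludin of the tight junction, was above background on expanded arrays only and was at least 1.49-fold higher.

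Signals that keratinocytes make for themselves were read by family. Of 7 EGF receptor ligands measured, 5 were lower and none higher, and the median was -1.14. Tgfa read 10.69, 10.59 and 10.53 against 8.39, 8.25 and 8.89 and fell by 2.10 ± 0.18, or 4.28-fold (adjusted p = 0.000215). Ereg was not above background on any expanded array and was at least 2.9-fold lower than its 8.15, 7.98 and 7.90 on the control arrays. Hbegf read 11.62, 11.67 and 11.67 against 10.65, 10.72 and 10.69, a nearly constant step of 0.96. Nrg1 and Epgn fell by 1.28 and 1.14. None of the 5 receptors passed, and Egfr itself differed by 0.06 ± 0.08. Of 13 feedback genes of this route, Dusp6, the phosphatase that resets ERK, fell by 1.06 and Spry1 rose by 0.82.

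Immediate early genes showed no common shift, with 3 of 25 higher (1 without Ctrl2, Ctrl3, Exp1 or Exp2), 1 lower and a median of 0.00. Fosl1, an AP-1 subunit downstream of ERK, read 11.01, 10.93 and 10.98 against 10.18, 10.45 and 9.93 and was the one that fell. Myc rose from 10.40, 10.43 and 10.57 to 11.09, 11.02 and 10.98. Its relative Mycl, outside the lists, rose 4.0-fold. Of 26 YAP and TAZ genes 3 were higher and 6 lower. The classic targets did not pass, with Ccn1 at 0.12 and with Ccn2 and Ankrd1 near background. Tead4, a DNA-binding partner of YAP, fell by 1.33 ± 0.21, the target Nt5e by 0.95 and tissue factor (F3) by 0.84. Ptpn14, which restrains YAP, rose by 1.05. With 1 array left out, 1 to 2 were higher, fewest without Ctrl2 or Exp2, and 4 to 6 lower, fewest without Ctrl3 or Exp1.

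Of 8 TGF-beta superfamily ligands 2 were higher and 3 lower. Inhba, the activin chain, read 11.85, 11.85 and 11.42 on the control arrays and 8.49, 9.31 and 9.06 on the expanded arrays and fell by 2.76 ± 0.20, or 6.75-fold (adjusted p = 0.000114). Its other probe set differed by -0.12, and the mean of both was -1.44. Tgfb1 read 9.61, 9.54 and 9.47 against 8.37, 8.85 and 8.58. Among the BMPs, Bmp7 read 8.78, 8.61 and 8.66 against 9.39, 9.50 and 9.50, and rose by 0.78 ± 0.07 (adjusted p = 0.000378). Bmp2 rose by 0.81, and Id3, a direct BMP target, by 0.88. Of the storage proteins of latent TGF-beta, Ltbp1 fell by 0.70 and Ltbp4 rose by 1.10, but the other 2 probe sets of Ltbp1 differed by -0.04 and -0.03 and the mean of its probe sets was -0.26. The co-receptor Tgfbr3 was higher by 0.87. In all 7 of 34 members were higher and 6 lower, the latter 3 to 5 with 1 array left out, fewest without Ctrl1, Ctrl2 or Exp2.

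**Figure D5:**
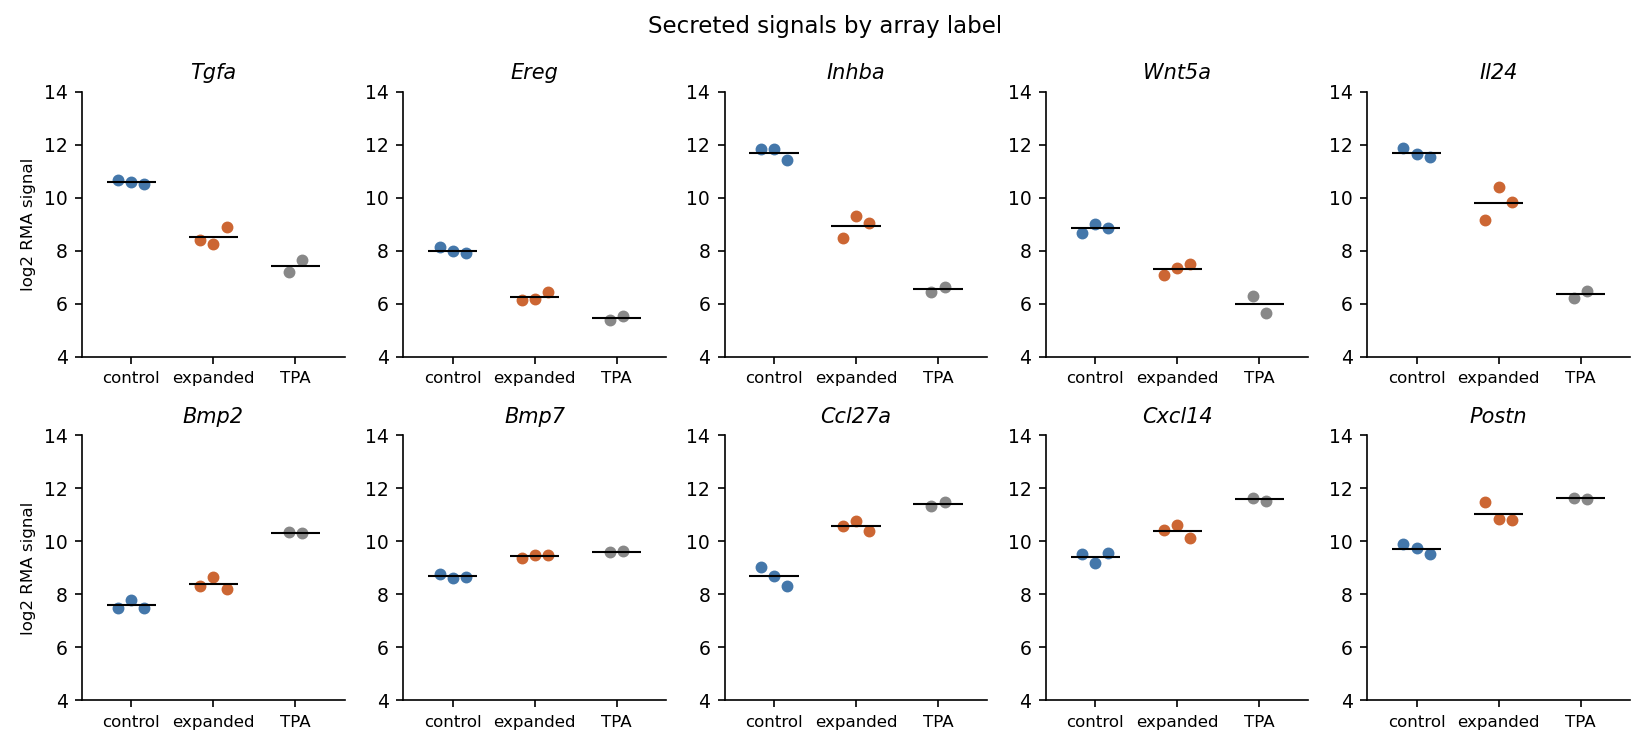
Log2 RMA signal (y axis) of 10 secreted signals on each array, by label (x axis); points are mice (3 control, 3 expanded, 2 TPA) and lines are group means. Tgfa, Ereg, Inhba, Wnt5a and Il24 are lower, and Bmp2, Bmp7, Ccl27a, Cxcl14 and Postn higher, on all expanded than on all control arrays; the arrays labelled TPA lie further in the same direction for all 10.

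In the Wnt list 5 of 41 members were higher and 4 lower. Wnt5a, a ligand of the branch without beta-catenin, read 8.68, 9.03 and 8.85 against 7.08, 7.35 and 7.49, or 2.92-fold lower (adjusted p = 0.000998). The rises included the receptor Lgr4 (0.94), the ligase Znrf3 (0.57) and the secreted inhibitor Sfrp1 (0.58), while the target Axin2 differed by 0.07 and did not pass. Lgr4 averaged over its probe sets was 0.62 and did not pass (adjusted p = 0.127). With 1 array left out 1 to 3 were lower, fewest without Ctrl2, Ctrl3, Exp1 or Exp3. In the Notch list 2 of 20 were higher (1 without Ctrl1, Ctrl2, Exp2 or Exp3) and 3 lower (1 without Exp3). The receptor Notch1 read 11.07, 11.01 and 11.06 against 11.62, 11.51 and 11.62, and its ligand Jag1 read 11.73, 11.75 and 11.71 against 11.01, 10.98 and 11.11. The receptor thus rose by 0.53 and the ligand fell by 0.70, each without overlap.

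Cytokines and chemokines numbered 3 higher and 5 lower of 34. The interleukin Il24, made by wounded keratinocytes, read 11.88, 11.64 and 11.56 against 9.15, 10.40 and 9.86, and fell by 1.89 ± 0.27 (adjusted p = 0.00262). Il33, an alarm signal to lymphocytes, fell by 0.94. The skin-homing chemokine Ccl27a read 9.03, 8.71 and 8.31 against 10.58, 10.78 and 10.38, a 3.72-fold rise, and Cxcl14, a chemokine of resting epithelia, rose 1.95-fold. The decoy receptor Il1r2 rose by 1.61. None of the 5 alarmins passed. The interferon list was near the background shares, with 3 of 37 higher and 2 lower (1 with each of the 6 arrays left out in turn); its largest member, the ADP-ribosyltransferase Parp10, read 8.69, 8.21 and 7.88 against 10.42, 10.56 and 10.43.

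Prostaglandin and arginine genes showed 3 of 24 higher and 8 lower. Arginase (Arg1), which splits arginine to ornithine, read 10.13, 10.91 and 10.66 on the control arrays and 6.59, 6.74 and 6.25 on the expanded arrays, 2 of them above background, and fell by 4.04 ± 0.20, or 16.5-fold (adjusted p = 2.87e-05). Odc1, which turns ornithine to putrescine, fell 2.84-fold and the arginine-making Ass1 1.72-fold (-0.49 on the log2 scale when averaged over its probe sets, beside -0.78). Of the prostaglandin genes, the importer Slco2a1 fell by 1.06, and Hpgd, which inactivates prostaglandins, was above background on expanded arrays only and was at least 1.68-fold higher. Rises in the list numbered 1 to 2 with 1 array left out, fewest without Ctrl1, Ctrl2, Exp1 or Exp2, and falls 5 to 7, fewest without Ctrl3.

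Glycolysis and hypoxia genes had no member higher. Of 14 hypoxia genes 7 were lower, of 11 glycolysis enzymes 6, and of 4 transporters 2. Ndrg1, a stress gene, read 12.09, 12.24 and 12.17 against 10.62, 10.68 and 10.69 and fell by 1.51 ± 0.07 (adjusted p = 2.43e-05). Vegfa, the endothelial growth factor, fell 2.35-fold, the mitophagy receptor Bnip3 2.24-fold, the oxidase Ero1a 2.18-fold and the lactate exporter Slc16a3 2.37-fold. Hexokinase Hk2 fell by 0.68 and Hif1a by 0.35, the latter not passing when averaged over its probe sets (adjusted p = 0.0882). Without Ctrl2 only 1 glycolysis enzyme and 8 of the whole list were lower, and up to 13 of the list without another array. Car9, a hypoxia-inducible carbonic anhydrase of the metallothionein list, read 9.29, 9.29 and 9.09 against 7.50, 7.41 and 7.51. In that list 3 of 15 were higher and 2 lower, and Mt4, a metallothionein of stratified epithelia, rose from 9.03, 7.98 and 7.27 to 11.33, 11.39 and 11.44, or 9.78-fold (adjusted p = 0.000739). Rises there numbered 1 to 2 with 1 array left out, fewest without Ctrl2 or Ctrl3.

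Of 45 lipid synthesis genes 1 was higher and 15 lower. Of 19 cholesterol genes 7 were lower (3 without Ctrl2 or Exp3) and of 12 ceramide genes 6. Farnesyl diphosphate synthase (Fdps) fell by 0.63 and the sterol demethylase Cyp51 by 0.52. Degs2, which makes the hydroxylated ceramides of the skin barrier, read 8.08, 8.71 and 8.55 against 7.12, 6.95 and 7.38, and fell 2.46-fold. Ugcg, which puts glucose on ceramide, fell by 0.88 and Sptlc1, of the first step, by 0.69. The elongase Elovl7 ran the other way at 0.66 (0.36 averaged over its probe sets). The whole list had 10 to 14 lower with 1 array left out, fewest without Ctrl2 or Exp3.

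Of 17 chaperones and cofactors of the endoplasmic reticulum 10 were lower and none higher, with 7 to 9 lower when 1 array was left out. With a replicate block 6 were lower. Hspa5, the main lumenal chaperone, read 10.62, 10.57 and 10.44 against 9.91, 10.10 and 9.98 and fell by 0.55 ± 0.08 (adjusted p = 0.00353). Manf, a secreted stress protein, was the most even, at 11.46, 11.45 and 11.45 against 10.77, 10.88 and 10.84. Creld2, Dnajc3, Sdf2l1 and calreticulin (Calr) fell by 0.49, 0.40, 0.66 and 0.35, but Dnajc3 did not pass when averaged over its probe sets (-0.24, adjusted p = 0.0532). Their regulator Xbp1 fell by 0.72. Of 19 targets of ATF4, the factor of amino acid stress, 4 were lower and 2 higher. Trib3 read 9.43, 9.46 and 9.17 against 8.14, 8.11 and 8.16, and Sesn2 fell by 1.03, whereas Phgdh, the first enzyme of serine synthesis, rose by 0.78. Over all 44 genes 15 were lower and 2 higher, with 11 to 14 lower when 1 array was left out. The 2 rises became 1 without Ctrl2. Heat shock chaperones outside this compartment had 2 of 14 higher (1 without Ctrl2, Ctrl3, Exp1 or Exp3) and 1 lower.

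Oxidative stress genes were mixed, with 3 of 31 higher and 4 lower. The NRF2 target Hmox1, which degrades haem, read 9.90, 10.04 and 10.18 against 8.11, 8.21 and 8.33 and fell by 1.82 ± 0.14 (adjusted p = 0.000136). The sulfiredoxin Srxn1 fell by 1.15. Of the glutathione transferases Gsta4 fell by 0.64 and Gstm2 rose by 0.87. Rises in the list numbered 1 to 2 with 1 array left out, fewest without Ctrl3, Exp1 or Exp2.

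The share of division genes that passed was 15.6% for replication and 11.1% for mitosis, beside 11.5% of all genes. Mki67, the proliferation marker, read 10.55, 10.34 and 10.42 on the control arrays and 10.48, 10.38 and 10.57 on the expanded arrays, with overlap, and differed by 0.04 ± 0.08. Of 45 replication genes 4 were higher and 3 lower, and with 1 array left out 0 to 3 were higher, none without Ctrl3 or Exp2, and 1 to 3 lower, fewest without Exp1 or Exp2. Of 36 mitosis genes none was higher and 4 were lower, and 33 lay below 0, with a median of -0.22; 1 to 6 were lower with 1 array left out, fewest without each array but Exp3. E2f8, a repressor at the end of S phase, fell by 0.67 and cyclin F (Ccnf) by 0.55. Of the p53 list 3 of 25 were higher and 4 lower. The cell cycle inhibitor Cdkn1a read 12.42, 12.42 and 12.35 against 11.94, 11.94 and 11.89, and the BH3-only gene Pmaip1 fell by 0.83, whereas Sesn1 and Trp53inp1 rose by 1.11 and 1.44. Targets of p53 thus ran both ways.

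Genes of ribosome assembly leaned upward in small steps. Of 31, 6 were higher and 29 lay above 0, with a median of 0.20 beside 0.01 over all genes. The RNA polymerase I subunit Polr1b read 7.72, 7.98 and 7.84 against 8.64, 8.36 and 8.36, a rise of 0.61. Ribosomal proteins had a median of 0.14, and 1 to 4 of 23 were higher with 1 array left out, fewest without each array but Ctrl1. The assembly list kept 3 to 6, fewest without Ctrl2 or Exp3. The respiratory chain had 2 of 33 higher (1 without each array but Ctrl3) and a median of 0.09.

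The circadian list had 6 of 22 higher and none lower, 4 to 6 with 1 array left out. Klf9, a clock output and a glucocorticoid target, read 8.35, 8.29 and 8.22 against 9.39, 9.41 and 9.57, a rise of 1.17 ± 0.08 (adjusted p = 6.31e-05), or of 0.50 averaged over its 5 probe sets. The clock activator Rora rose by 0.95, the output factor Hlf by 0.89 and Per1 by 0.50. The hour at which skin was taken is not given in the labels, and its part was not tested. In the steroid and retinoid list, 3 of 26 were higher and 3 lower. Zbtb16, a sensitive glucocorticoid target, read 6.76, 6.99 and 7.06 against 8.70, 8.77 and 8.91, a 3.62-fold rise (adjusted p = 4.41e-05), though its other probe set differed by 0.13 and the mean of both was 0.99. Cyp26b1, which degrades retinoic acid, read 10.65, 10.60 and 10.65 against 8.67, 8.82 and 8.83 and fell by 1.86, and the retinoic acid receptor Rarg rose by 0.60.

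The remaining lists of cell function were small. Hox genes, which record position along the body, had 3 of 26 higher and none lower, with 1 to 3 higher when 1 array was left out, fewest without Ctrl2 or Exp1, and Hoxd10 rose by 0.85. Among channels and mechanosensors 3 of 34 were higher and 3 lower. The stretch-gated channel Piezo1 read 8.90, 8.89 and 8.75 against 8.07, 8.09 and 8.28 and fell by 0.70 ± 0.08 (adjusted p = 0.00122), and the potassium channel Kcnk1 fell by 1.40. No channel member was higher without Ctrl2. Chromatin regulators had 3 of 24 higher and 3 lower, with Cbx2, a Polycomb subunit, higher by 0.57 (0.30 averaged over its probe sets); 0 to 2 were lower with 1 array left out, none without Ctrl2 or Exp1.

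Markers of other cells were read beside these results. In bulk samples, fewer cells of a type and less RNA per cell cannot be told apart. Of 13 Langerhans cell and antigen presentation markers none was higher and 2 were lower, H2-Ab1 and the adhesion molecule Epcam (-1.04). On all control and expanded arrays 5 of the 13 lay under the limit. H2-Ab1, a class II chain, read 7.88, 8.02 and 9.55 against 6.71, 6.44 and 6.51 and fell 3.81-fold in its brightest probe set, with -0.56 and -0.49 in the others and no call for their mean (adjusted p = 0.087), and H2-Aa (0.06) and Cd74 (-0.24) did not pass and Cd207, the defining marker, lay under the limit on all 8 arrays. The summed level of that list ran from 11.09 to 11.54 on the control and from 10.63 to 10.75 on the expanded arrays (log2 of the summed signal). For 16 macrophage and neutrophil markers, of which 2 were lower (1 without Ctrl3, Exp2 or Exp3), it ran from 11.37 to 11.44 and from 10.86 to 10.89. Lyz2 read 8.25, 5.36 and 7.12 on the control arrays and under the limit on the expanded ones. Tyrobp read 7.32, 5.60 and 7.30 on the control arrays, so these 2 markers were above the limit on 2 of the 3. The summed level of the whole list did not set control replicate 2 apart. Lyz2 and Tyrobp, at most 8.25, make up little of a sum of 11.37 to 11.44. The sum therefore cannot show whether that array held fewer myeloid cells. Of the 16 markers in the list 9 lay under the limit on all control and expanded arrays. The part of myeloid cells in the falls of Mmp9, Arg1 and Timp1 was not tested. Control replicate 2, at 5.36 for Lyz2 and 5.60 for Tyrobp, read 13.09 for Mmp9, 10.91 for Arg1 and 10.24 for Timp1.

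Of 10 T cell markers Thy1 was higher (1.23), and Cd3d and Cd3e, which define these cells, lay under the limit throughout. No member passed among 12 fibroblast, 14 endothelial, 11 melanocyte or 3 red blood cell markers. Control replicate 1 was high for the endothelial Cdh5, at 9.73 beside 7.02 and 6.86, and expanded replicates 2 and 3 read 8.39 and 8.42 beside 6.57. Among 11 Merkel cell and 13 nerve and muscle markers 1 each was lower, Krt18, whose call was lost with signals raised to the limit, and Tubb3. Follicle and infundibulum markers had 5 of 28 higher and 3 lower. Plet1, of the junctional zone and infundibulum, read 11.98, 11.89 and 11.84 against 10.69, 11.08 and 10.68. Of 11 bulge markers 1 was lower, Fgf18 (3.44-fold), and 1 higher, Krt15 (by 1.23), with a median of -0.04. Sostdc1 and Sox6 rose by 0.77 and 0.88. The infundibulum keratin Krt79 varied from 7.51 to 10.57 within the expanded group and did not pass. Of 12 sebaceous markers 1 was higher and 2 lower, among them Acsbg1 at -1.69, with no member higher without Ctrl1 or Ctrl3 and 1 lower without each array but Exp2.

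Several of the largest differences lay outside the lists. Neu2, a cytosolic sialidase, read 10.07, 9.82 and 9.30 on the control arrays and was not above background on the expanded ones, at least 9.51-fold lower. Mal, a raft protein of apical transport, read 10.12, 10.60 and 10.50 against 7.54, 7.82 and 7.43, and urate oxidase (Uox) 10.58, 10.60 and 10.70 against 8.32, 7.04 and 8.01. The membrane-bound Flrt2 (-2.28), Gprc5a (-2.28), Basp1 (-2.30) and Marcksl1 (-2.22) each fell more than 4-fold. Has2, which makes hyaluronan, fell by 2.17 ± 0.35 (adjusted p = 0.00465) with a spread of 7.39 to 8.82 on the expanded arrays. Among the rises, Fcgbp read 8.37, 8.74 and 8.65 against 11.11, 10.83 and 10.69, Selenbp2 rose by 2.68, the protease inhibitor Serpina3n by 1.99, the chaperone clusterin (Clu) by 1.73 and the chemokine scavenger Ackr4 by 1.78. All of these were without overlap between the groups.

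Against the 2 arrays labelled TPA, 1022 genes (5.98%) passed, 541 higher (3.16%) and 481 lower (2.81%) in expanded skin. Both comparisons share the expanded arrays, so their values are set side by side only. Expanded arrays were lower than control but higher than TPA arrays for Inhba (-2.76 and 2.41), Odc1 (-1.5 and 0.84), Tgfa (-2.10 and 1.08), Il24 (-1.89 and 3.45), Tubb3 (-2.13 and 2.26), Actn1 (-0.91 and 1.14), Dsc2 (-1.29 and 2.73) and Wnt5a (-1.55 and 1.32), all with an adjusted p under 0.05 in both. They were higher than control but lower than TPA arrays for Krt15 (1.23 and -1.16), Bmp2 (0.81 and -1.94), Zbtb16 (1.86 and -0.81), Col4a6 (1.57 and -1.36), Klf9 (1.17 and -1.04) and Cxcl14 (0.96 and -1.20). Other genes differed from control without passing against TPA, namely Krt2 (5.72 and -0.26), Krt36 (4.51 and -0.31), Krt10 (1.47 and 0.01), Arg1 (-4.04 and 0.25), Mal (-2.81 and -0.02) and Mmp9 (-4.19 and 1.41). Expanded arrays were below both other labels for Mmp3 (-1.95 and -0.82), Fosl1 (-0.79 and -1.28), F3 (-0.84 and -1.0) and Epcam (-1.04 and -0.79), and above both for Serpinb3a (1.93 and 0.89) and Serpina3n (1.99 and 0.89).

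By list, the SRF and actin genes had 6 of 28 members higher and 2 lower than the TPA arrays, where 0 were higher and 16 lower than control. Focal adhesion had 1 higher and 1 lower of 20 against TPA, replication 8 higher and none lower of 45, glycolysis and hypoxia 8 higher and 1 lower of 29, and ER stress 10 higher and 3 lower of 44. Immediate early genes had none higher and 15 lower of 25, and the clock none higher and 8 lower of 22. The direction of the SRF, glycolysis and ER stress lists thus depends on which of the other labels serves as the reference.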

How the data were processed

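Each array was made from 300 sorted cells, with cDNA amplified for 25 cycles after trypsin at 4 °C overnight, per the labels' protocols. The deposited values are log2 signals from RMA, per the submitters' processing notes, with the version not given in the sources used here. RMA puts all arrays on 1 distribution, so an overall shift in RNA cannot be seen. Of 45141 probe sets, 28898 carried 1 gene symbol, 551 several and 15588 none in the platform's annotation of 2016, and 104 controls were left out. The probe set with the highest mean over 8 arrays stood for each of 17097 genes. A model with 1 coefficient per group was fitted to these arrays (lmFit and eBayes of limma 3.58.1, under R 4.3.3), and p-values were adjusted by Benjamini-Hochberg over all genes at 0.05. In simulated data with 100 genes changed at each size, it recovered 58% of genes changed 1.5-fold and 93% of those changed 2-fold. It made 12 false calls there. Far more genes were called in the real data, so these rates may not carry over. Precision rests on 3 mice a group. A bound raises signals of the dimmer group to the background limit. Promoters are RefSeq's (GRCm38.p6). The lists and named genes were chosen with earlier results of these data known. Text names list members, the 30 largest rises and 30 largest falls, and marker genes; Pou2f3, Mycl and others outside lists come from the largest differences. The alternatives were other normalizations, a signal filter, the mean of probe sets, other variance models, a replicate block, a 1.5-fold test and leaving out arrays. Replicate numbers did not pair arrays (residual correlations of same-numbered arrays -0.18, 0.00 and 0.03).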

Additional observations from a re-analysis of the deposited data

How the results depend on the processing

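Of 1960 calls (972 higher, 988 lower), quantile normalization, median centring, a signal filter, the mean of probe sets, a trended robust variance, array weights, only the 6 arrays, and signals raised to the limit gave 1917 to 2522. Testing against a 1.5-fold change in place of 0 left 173 (64 higher, 109 lower; at 2-fold 63 and 106), as that test asks for more. Leaving out each array left 1261 to 1517 in all, 591 to 755 higher and 670 to 762 lower, with fewer samples in each fit. With a replicate block, 1664 genes passed (808 higher, 856 lower), 1469 of them also called without it. Of the called genes named, the block ended the call of Fn1 (adjusted p = 0.0811). Counting each list under each alternative but the 1.5-fold test, 648 list medians stayed within their spread between arrays and 84 moved beyond it. The median of the endothelial markers, -0.11, ranged from -0.18 to 0.04 with 1 array left out, and was above 0 without control replicate 1 (0.04) and without expanded replicate 1 (0.01). Precision is limited by 3 arrays a group, and 180 called genes had a dimmer group under the background limit, so their folds are bounds at most. In 84 of these genes both groups lay under the limit on every array, and no bound on the fold can be given.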
